A study of Mus musculus with 20 samples.

Results

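The entries described here are 7 of the 1881 mouse microRNAs on an array: mmu-miR-5126, mmu-miR-3960, mmu-miR-2861, mmu-miR-2137, mmu-miR-762, mmu-miR-5135 and mmu-miR-5100, written below without the species prefix. They were chosen by name, as entries that are rich in G and C or are thought to read fragments of ribosomal or other structural RNA rather than a processed microRNA. The RNA came from ascending aorta with atherosclerotic lesion of male double knockout mice, genotype Apobtm2Sgy/Ldltm1Her, and every group carried both alleles. Mice were taken at week 0 on chow (2 arrays), or at weeks 6, 18 and 30 on chow or on a high fat diet (3 arrays in each of the 6 groups), which makes 20 arrays in 7 groups. The study asked how microRNAs change as diet-induced plaque progresses. The labels do not say whether an array holds 1 mouse or a pool, so the p-values below measure only the spread between these samples, which may be technical. Tissue of mixed cell types was measured, so fewer cells of a type and less RNA per cell cannot be told apart.

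A microRNA is cut from a hairpin transcript, is loaded into Argonaute and recognises target messenger RNAs mainly through its seed, bases 2 to 8. The array does not require any of this: total RNA receives a Cy3 dye at its 3′ ends, and any labelled fragment that ends in the right bases can bind a short probe. The genes of miR-2861 and miR-3960 lie in a cluster known from work on bone-forming cells and on calcifying vascular smooth muscle, and miR-762 has been studied in smooth muscle calcification. Entries of this kind are often bright on microRNA arrays.

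The mature sequences below show what the label means in bases. They are from RefSeq on the mouse build GRCm38.p6, written 5′ to 3′ with the seed in capitals; 6 of the 7 names matched an entry.
miR-5126: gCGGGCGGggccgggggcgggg
miR-2861: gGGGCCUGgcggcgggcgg
miR-2137: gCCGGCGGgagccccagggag
miR-762: gGGGCUGGggccgggacagagc
miR-5135: aGGUCUAGguggcaagggcguccu
miR-5100: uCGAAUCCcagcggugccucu
The hairpin of miR-3960 is shown with the bases that its longer probe pairs with in capitals.
Mir3960 hairpin: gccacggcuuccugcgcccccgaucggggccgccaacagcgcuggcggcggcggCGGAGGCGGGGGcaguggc

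The G+C content divided the set. MiR-5126 consists of G and C alone (100%, the highest of the 1608 array microRNAs with a sequence), miR-2861 has 94.7%, miR-2137 85.7% and miR-762 81.8%, whereas miR-5135 has 62.5% and miR-5100 61.9%. The median of the 1608 was 52.2%, and 81 of them (5.04%) reached 70%. MiR-5135 and miR-5100 ranked 296 and 313 by G+C content, so the GC-rich label held for 4 of the 6 and not for these. The motif GGCGG was found in miR-5126, miR-2861 and miR-2137, and in 1.24% of the 1608 mature sequences (0.933% hold it on the other strand). GGGG, whose matches can share bases with those of GGCGG, was found in miR-5126, miR-2861 and miR-762, and in 11.3% of them (7.46% on the other strand). No 2 of the 6 shared a seed.

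MiR-5100 was set apart by another motif. Its hairpin holds GUUCGANUC, the pattern of the T arm of transfer RNAs, and was the only 1 of 1005 hairpins that did, on either strand. It is printed with the bases its longer probe pairs with in capitals, and the pattern ends where they begin.
Mir5100 hairpin: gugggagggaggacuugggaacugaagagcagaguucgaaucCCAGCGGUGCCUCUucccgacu
No sequence of ribosomal or transfer RNA was used here, so an origin in either was not tested.

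By the same annotation the hairpins are scattered over the genome. Mir2861 (chr2:32712807-32712888, minus strand) and Mir3960 (chr2:32712900-32712972, minus strand) are neighbours, and neither lies within another annotated gene. Mir5126 (chr1:84695839-84695915, plus strand) lies within the span of Dner, Mir2137 (chrX:72992079-72992144, plus strand) within Zfp185, Mir5100 (chr11:60728663-60728726, plus strand) within Mief2 and Mir762 (chr7:127708487-127708562, plus strand) within Bcl7c. Mir5135 (chr12:76533134-76533212, minus strand) overlaps no other gene. Overlap was judged by the span of a gene only. Whether that gene lies on the same strand, and exon or intron, was not determined.

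The probes of these entries were short. They had 9 to 14 bases, against a median of 16 over the 4415 probes of the array, and those of miR-2861, the shortest, are shown with the longer probes of miR-5126 and miR-3960 because these 3 entries hold so few bases of A or T.
miR-2861 probes: ccgcccgcc and ccgcccgccg
miR-5126 longer probe: ccccgcccccg
miR-3960 longer probe: cccccgcctccg
Only 3 of the 4415 probes had 9 bases. Each probe of the 6 entries with a mature sequence paired with that sequence's 3′ end, and none of the members' probes paired with any other of 1679 mature mouse sequences. Within an array, the spots of one probe agreed to a median coefficient of variation of 2.54% for miR-5100 and 4.99% for miR-2137, with the other bright entries between, but of 12.3% for miR-762 and 17.2% for miR-5135.

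Some facts of the whole set of arrays bear on every value below. Signals were scaled to each array's 75th percentile over the 192 microRNAs detected on all 20 arrays and are given on a log2 scale with a floor at 2.997, at which values have no order. That percentile ran from 183 to 1653 before scaling, and 316 to 742 of the 1881 microRNAs were detected per array. Under 400 were detected in replicate 3 of the high fat groups of weeks 6 and 18, and in replicate 1 of week 18 chow and of week 30 high fat. Slide 1 held the arrays of weeks 0 and 6. Slide 2 held the chow arrays of weeks 18 and 30 together with replicates 1 and 2 of week 18 high fat, and slide 3 held the third replicate of that group beside the whole week 30 high fat group. The slide position in the files differed from that in the labels for 8 arrays, and for replicate 1 of week 18 chow and of week 18 high fat the labels' position would exchange the diets. The smooth muscle markers miR-145a-5p and miR-143-3p were detected on every array, as was the endothelial marker miR-126a-3p. The other endothelial marker, miR-126a-5p, was detected on 2 of 3 arrays in week 18 chow and in week 30 high fat. Markers of other tissue were detected on every array too, 3 of 7 for striated muscle and 3 of 4 for brown fat.

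MiR-5126 was the brightest of the GC-rich entries. Its log2 level was 11.78 and 10.997 at week 0, and 11.496, 10.99 and 11.34 on chow at week 6. It was 12.31, 11.82 and 10.96 on chow at week 18, and 11.62, 11.41 and 11.24 on chow at week 30. On the high fat diet it was 11.67, 10.91 and 11.93 at week 6, 13.20, 11.18 and 12.35 at week 18, and 12.21, 12.45 and 12.70 at week 30. The 3 high fat arrays of week 30 lay close together and above every chow array of that week, while both week 18 groups were spread widely.

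MiR-3960 followed the same arrays. On chow it was 10.30 and 9.55 at week 0, and 10.09, 9.63 and 10.14 at week 6. It was 10.99, 10.32 and 9.45 at week 18 and 10.09, 10.19 and 9.71 at week 30. On the high fat diet it was 10.09, 9.58 and 10.49 at week 6, 12.46, 9.82 and 10.93 at week 18, and 10.98, 11.03 and 11.26 at week 30. Its highest array was week 18 high fat replicate 1, more than 1 log2 unit above any other, and in the order of group means the high fat groups of week 30 (11.09) and week 18 (11.07) were first and second. Over the 20 arrays the Pearson correlation of miR-3960 with miR-5126 was 0.97.

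**Figure D1:**
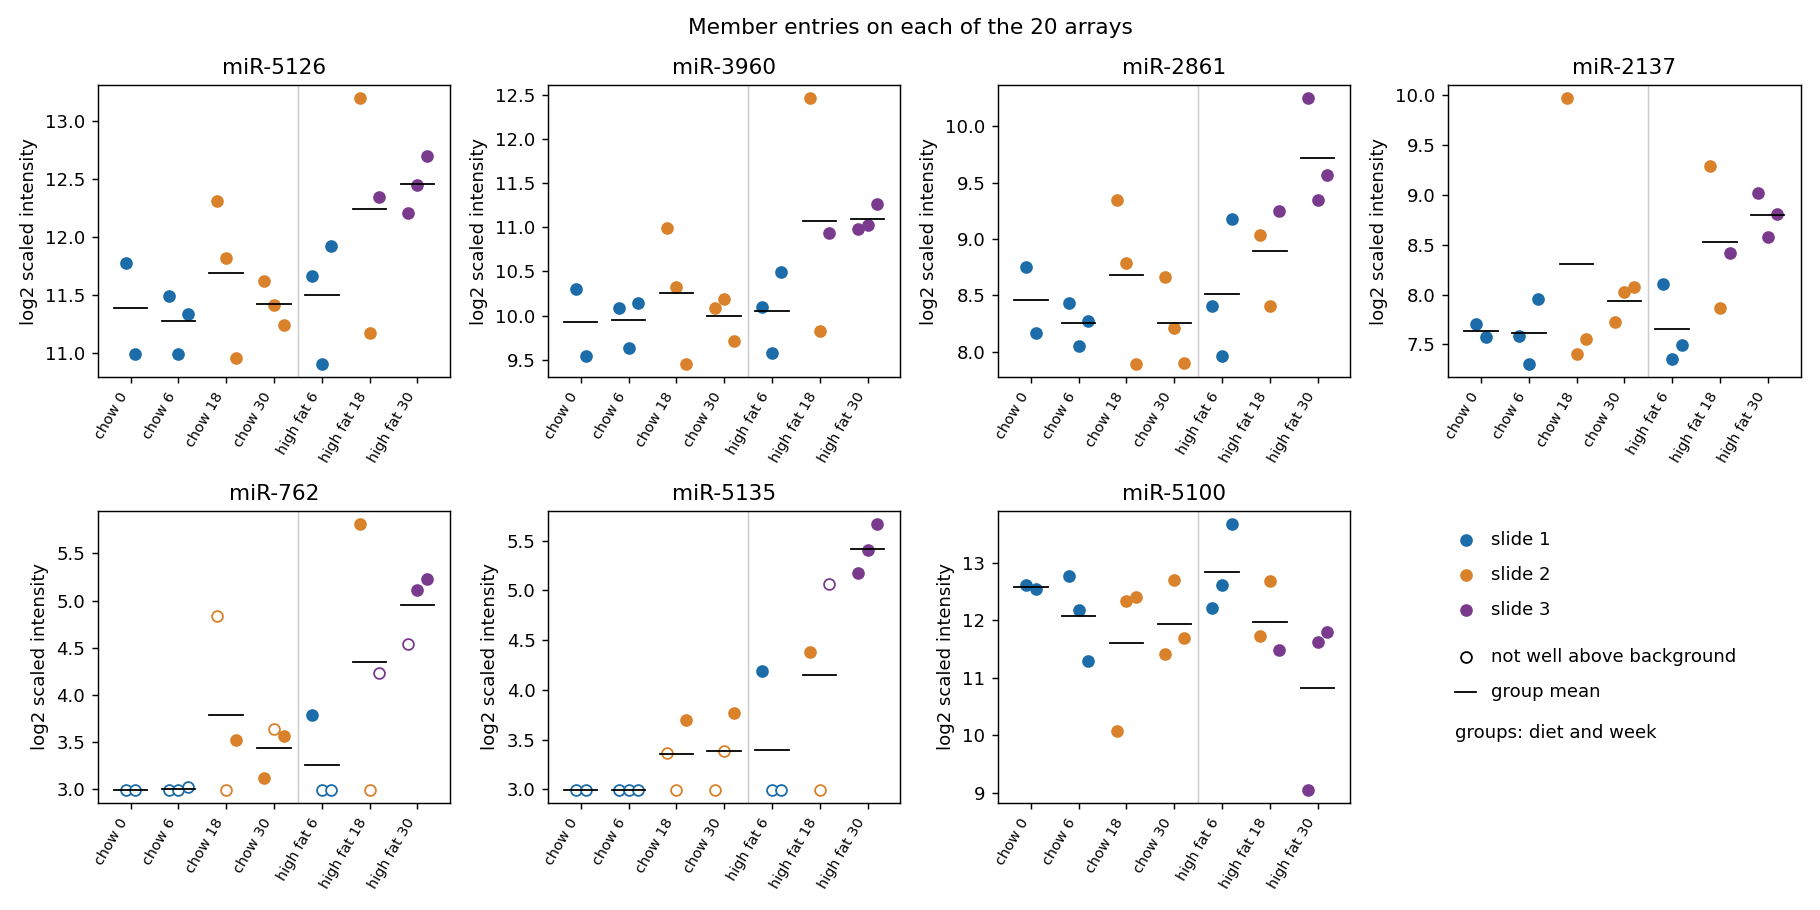
Log2 scaled intensity (vertical axis) of the 7 entries on each of the 20 arrays, by diet and week; colour is the slide, an open symbol is a value not well above background, and a line is the group mean. At week 30 the 3 high fat arrays lie above the 3 chow arrays for every entry except miR-5100.

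MiR-2861, the neighbour of miR-3960, was dimmer. On chow it was 8.75 and 8.16 at week 0, and 8.43, 8.05 and 8.27 at week 6. It was 9.35, 8.79 and 7.89 at week 18 and 8.66, 8.21 and 7.90 at week 30. On the high fat diet it was 8.40, 7.97 and 9.18 at week 6, 9.04, 8.41 and 9.24 at week 18, and 10.25, 9.35 and 9.57 at week 30. The week 30 high fat group was first in the order of means and overlapped neither week 30 chow nor week 18 high fat, the group next to it; 3.28% of the 609 microRNAs tested had these high fat groups apart in this direction. The remaining neighbours in that order overlapped.

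MiR-2137 showed its highest level on a chow array. On chow it was 7.70 and 7.57 at week 0, and 7.58, 7.30 and 7.96 at week 6. It was 9.97, 7.40 and 7.56 at week 18 and 7.72, 8.02 and 8.07 at week 30. On the high fat diet it was 8.10, 7.35 and 7.49 at week 6, 9.29, 7.87 and 8.42 at week 18, and 9.02, 8.58 and 8.81 at week 30. No neighbouring groups in the order of its means were free of overlap.

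MiR-5135 was near the limit of the assay. It was well above background on 7 of 20 arrays: all 3 of the week 30 high fat group, 1 of 3 in each of week 6 high fat, week 18 chow, week 18 high fat and week 30 chow, and none of the 5 at week 0 and week 6 chow, all of which sat at the floor. At week 30 it was 5.17, 5.41 and 5.67 on the high fat diet and the floor, 3.39 and 3.77 on chow. At week 18 it was 4.38, the floor and 5.06 on the high fat diet and 3.36, the floor and 3.70 on chow. At week 6 on the high fat diet it was 4.19 and, in both other arrays, at the floor. The week 30 high fat arrays were thus above all others.

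MiR-762 was detected on 7 arrays too, 2 of 3 in each week 30 group, and on every array of no group, so that it was not tested. At week 30 it was 4.54, 5.11 and 5.23 on the high fat diet and 3.12, 3.64 and 3.56 on chow. At week 18 it was 5.81, the floor and 4.23 on the high fat diet and 4.84, the floor and 3.53 on chow. At week 6 it was 3.79 in replicate 1 and at the floor in the other two on the high fat diet, and at most 3.03 on chow, and both week 0 arrays were at the floor. Its highest array was week 18 high fat replicate 1, as for miR-3960 and miR-5126.

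MiR-5100 behaved differently. On chow it was 12.61 and 12.54 at week 0, and 12.77, 12.18 and 11.29 at week 6. It was 10.07, 12.33 and 12.40 at week 18 and 11.41, 12.70 and 11.69 at week 30. On the high fat diet it was 12.21, 12.61 and 13.67 at week 6, 11.72, 12.68 and 11.48 at week 18, and 9.05, 11.62 and 11.80 at week 30. Its lowest arrays, week 30 high fat replicate 1 and week 18 chow replicate 1, were 2 of the 4 arrays with under 400 detected microRNAs, as was its highest, week 6 high fat replicate 3, and the other 4 members detected on every array were not low on its lowest arrays. The longer of its probes was a median 6.23 times as bright as the shorter, which differs by 1 base. For the other members whose probes differ by 1 base, the median was 2.69 times for miR-2137 and 1.46 times for miR-5135 (3 arrays). It was 1.01 times for miR-3960, 1.07 times for miR-2861 and 1.10 times for miR-5126.

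The main comparison was diet at week 30, where plaque had had longest to develop. MiR-5135 averaged 5.42 ± 0.25 (SD, n = 3) on the high fat diet and 3.38 ± 0.39 (SD, n = 3) on chow, a log2 difference of 2.03 (SE 0.48); 1 of the 3 chow arrays measured it well above background, and 1 chow array was at the floor. MiR-2861 averaged 9.72 ± 0.47 against 8.26 ± 0.38, a log2 difference of 1.47 (SE 0.45). MiR-5135 entered the test only because every array of the week 30 high fat group detected it, the group in which it was highest, so the detection filter favoured a difference. Neither entry passed, each with an adjusted p of 0.168 from limma with Benjamini-Hochberg adjustment.

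MiR-3960, miR-5126 and miR-2137 differed by less at week 30. MiR-3960 averaged 11.09 ± 0.15 on the high fat diet against 9.99 ± 0.25 on chow, a log2 difference of 1.10 (SE 0.55; limma adjusted p = 0.284). MiR-5126 averaged 12.46 ± 0.25 against 11.43 ± 0.19, a log2 difference of 1.03 (SE 0.49; limma adjusted p = 0.277). MiR-2137 averaged 8.80 ± 0.22 against 7.94 ± 0.19, a log2 difference of 0.86 (SE 0.55; limma adjusted p = 0.332). All 3 separated the diets without overlap between arrays, as did 28.6% of the 609 in that direction, and none passed the test, whose spread is shared with the wide week 18 groups.

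MiR-762 and miR-5100 complete the set at week 30. MiR-762 averaged 4.96 ± 0.37 against 3.44 ± 0.28, a log2 difference of 1.52; with no filter on dim microRNAs its limma adjusted p was 0.407 over 1881 tested. MiR-5100 averaged 10.83 ± 1.54 on the high fat diet against 11.93 ± 0.68 on chow, a log2 difference of -1.11 (SE 0.74; limma adjusted p = 0.340), with overlapping arrays. Without high fat replicate 1 that difference was -0.22.

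Read as a set, 0 of the 6 tested members passed at week 30, as did 0 of all 609 (0% called); at an unadjusted p under 0.05 there were 2, miR-5135 and miR-2861, and 109 of the 609 (17.9%). The high fat arrays lay wholly above the chow arrays for 5 of the 6 tested members, or 4 of the 5 without miR-5135, and for 174 of the 609 tested microRNAs (28.6%). The members' median log2 difference was 1.06, and that of the 609 was -0.13. Over the 5 members detected on all arrays it was 1.03, and over all 192 microRNAs detected on all arrays it was 0.46. Markers of some cell types were lower on the same high fat arrays and those of others were not, none of them called. For 4 listed blood-cell microRNAs 0 were higher on the high fat diet, with a median log2 difference of -1.21, and their mean level ran from 5.15 to 5.44 on the high fat diet and from 6.38 to 6.77 on chow. For 7 epithelial markers 0 were higher (median -1.68, mean level 3.31 to 3.32 against 3.48 to 7.51). Among them miR-200a-3p, miR-200b-3p, miR-200c-3p, miR-141-3p and miR-429-3p were at the floor on every week 30 high fat array. On the high fat diet miR-200a-3p, miR-200b-3p and miR-141-3p were still detected on 1 of 3 arrays, against 2 of 3 on chow. For miR-200c-3p and miR-429-3p it was none on the high fat diet and 1 of 3 on chow. The size of the epithelial median is thus limited by the floor. For 2 markers of red cells 0 were higher (median -1.50, mean level 6.10 to 8.28 against 8.37 to 9.79). For 2 of endothelium 0 were higher (median -1.24, mean level 6.15 to 8.44 against 8.22 to 9.33). Other lists were mixed: 2 of 4 striated muscle markers were higher (median 0.25), 2 of 4 of brown fat (-0.05), 1 of 2 of smooth muscle (0.14) and 1 of 2 of fibroblast (-0.29). The 1 liver marker differed by 0.06. The part of these cell types in the members' difference was not tested.

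A fit of the week 30 groups alone gave other calls. With the spread taken from those 6 arrays, 4 of the 5 members detected on every array were higher on the high fat diet, at a limma adjusted p between 0.0309 (miR-3960) and 0.0478 (miR-2137), against 91 of the 609 (14.9%) called higher. MiR-5135 had a limma adjusted p of 0.0249 there, in the group through which it passed the filter. MiR-5100 was not called there (limma adjusted p = 0.342). With array weights 5 members were called, beside 145 of 609 (23.8%) called higher. Those weights were 0.226, 11.54 and 3.97 for the week 30 high fat arrays, so the calls rested mainly on replicates 2 and 3, whose profiles differed by a standard deviation of 0.18 log2 units.

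Without scaling the week 30 differences of the tested entries were smaller, except that of miR-5100, which was -1.79. In unscaled intensity the week 30 high fat arrays read 1548, 9933 and 7816 for miR-5126, against 5140, 3183 and 3556 on chow. They read 398, 1152 and 891 for miR-2861, against 660, 346 and 350 on chow. The array of high fat replicate 1 was the dimmest of its group for both, and its 75th percentile was 254, against 1372 and 908 on the other two. Without scaling, 0 of the 7 members and 0 of the 609 (0%) had all high fat arrays above all chow arrays. With the labelling spike-ins as the scale the members were 0 of 7 and the background 6 of 609 (0.985%), and with the hybridisation spike-ins 1 of 7, miR-5135, and 57 of 609 (9.36%). Without scaling the members' median log2 difference was 0.38 and that of the 609 was -0.57.

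**Figure D2:**
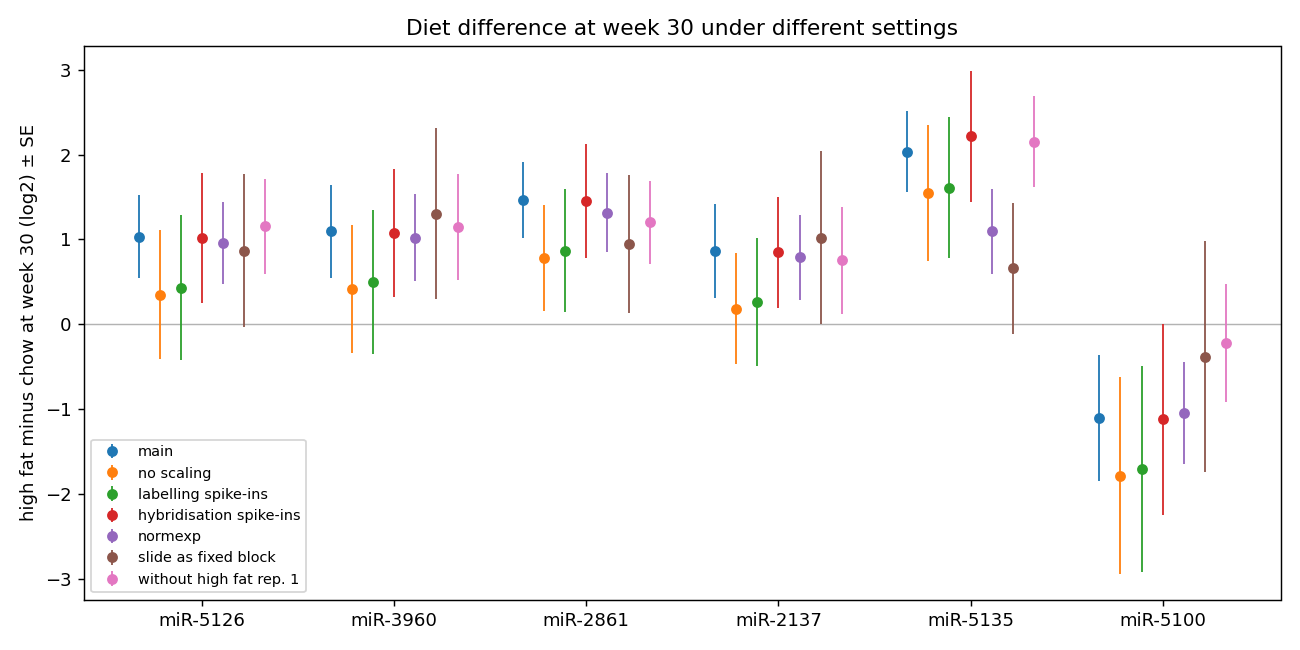
Difference at week 30, high fat minus chow (log2, point ± SE from limma), of the 6 tested entries under 7 settings. The difference of miR-5135 runs from 0.66 with slide as a fixed block to 2.21 with the hybridisation spike-ins, and miR-5100 is below 0 under all 7.

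Slide and diet cannot be told apart at week 30 except through 1 array, since the high fat arrays lay on slide 3 and the chow arrays on slide 2. That array is week 18 high fat replicate 3, on slide 3. It had only 328 detected microRNAs, and its 75th percentile before scaling, 1653, was the highest of all arrays. It read 12.35 for miR-5126, within the week 30 high fat range of 12.21 to 12.70, and 11.48 for miR-5100, within 9.05 to 11.80. For the others it lay below that range: 10.93 for miR-3960 (10.98 to 11.26), 9.24 for miR-2861 (9.35 to 10.25) and 8.42 for miR-2137 (8.58 to 9.02). It also lay below for miR-5135, at 5.06 (5.17 to 5.67), and miR-762, at 4.23 (4.54 to 5.23), neither of which was well above background on it. Its profile differed from that of week 30 high fat replicate 2 by a standard deviation of 0.19 log2 units over the detected microRNAs, against a median of 1.02 for 2 arrays of the same group. With slide as a fixed block the week 30 difference of miR-5135 was 0.66 (SE 0.78; limma adjusted p = 0.699), that of miR-2861 was 0.94, and that of miR-3960 was 1.31.

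At weeks 6 and 18 the members' median diet difference was below that of week 30 under the main scaling. At week 18 it was above week 30 without scaling (1.32 against 0.38), with the labelling spike-ins (1.36 against 0.46) and with the hybridisation spike-ins (1.37 against 1.05). The median of all 609 was also higher at week 18 under these scales. It was 0.96 against -0.57 without scaling, 0.93 against -0.51 with the labelling spike-ins and 1.01 against -0.10 with the hybridisation spike-ins. At week 6, where both diets shared slide 1, the 6 tested members differed by 0.04 to 0.75. All were higher on the high fat diet, as were 267 of all 609, and the members' median was 0.24, against -0.11 for all 609. Leaving out high fat replicate 1, 2 or 3 made that median 0.11, 0.53 or 0.06, and leaving out chow replicate 2 made it 0.12; without high fat replicate 1 or 3 or chow replicate 2, 4 of the 6 were higher. None passed or reached an unadjusted p of 0.05, against 18 of 609 (2.96%) called, all lower. At week 18 the members differed by 0.21 to 0.81, all higher, as were 412 of all 609. Their median was 0.45, against 0.27 for all 609. Neither the members nor any of the 609 (0%) passed, no member reaching an unadjusted p of 0.05. The members' median was -0.05, with 3 of the 6 higher, when arrays were scaled to the percentile over all microRNAs. It was 0.13 without high fat replicate 1, 0.81 without high fat replicate 2, 0.83 without chow replicate 1 and 0.30 without chow replicate 3. With the diets of replicate 1 exchanged, as the labels' slide position has it, 3 of the 6 were higher and the median was 0.04. Without replicate 1 of both groups, 5 of the 6 were higher and the median was 0.49. Within slide 2 the week 18 difference of miR-5135 was 0.34 and that of miR-3960 was 0.88. These 3 diet comparisons use separate arrays.

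Averaged over the 3 weeks, the diet difference was 1.07 (SE 0.27) for miR-5135, with a limma adjusted p of 0.160. It was 0.67 for miR-3960, 0.65 for miR-2861 and 0.60 for miR-5126, and 0.00 for miR-5100. No member passed, against 1 of 609 (0.164%), and 4 members had an unadjusted p under 0.05, as did 104 of the 609 (17.1%). A change of the diet difference with time was tested too (limma), which called 6 of 609 (0.985%) but no member, and gave no member an unadjusted p under 0.05. The members' adjusted p ran from 0.534 to 0.771.

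Between times on chow no member was called. From week 0 to week 6, 129 of 609 microRNAs (21.2%) were called by limma, and from week 6 to week 18, 100 (16.4%), but none of the members, of which none had an unadjusted p under 0.05. From week 18 to week 30 no microRNA was called (0%). The largest chow difference among the tested members was 0.70 (SE 0.55) for miR-2137 between weeks 6 and 18. It rested on 1 array, week 18 chow replicate 1. The untested miR-762 differed by 0.78 over the same step. It was well above background on 1 of 3 chow arrays at week 18 and on none at week 6.

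On the high fat diet the members other than miR-5100 had higher means at later times, without a call. Against week 0 chow, week 6 high fat gave differences of 0.01 to 0.40, with 0% of the 609 called. From week 6 to week 18, miR-3960 differed by 1.02 (SE 0.55) and miR-5100 by -0.87 (SE 0.74), again with 0% called. From week 18 to week 30, miR-5135 differed by 1.27 (SE 0.48; limma adjusted p = 0.808), the only member with an unadjusted p under 0.05 there, as had 18 of 609 (2.96%), and 0% of all microRNAs were called. On slide 3 alone, against 1 week 18 array, that difference was 0.48 for miR-2861, 0.38 for miR-2137, 0.16 for miR-3960, 0.10 for miR-5126 and -0.65 for miR-5100; miR-5135 was not well above background on that array.

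Across the 7 groups as a whole, miR-5135 was the only member called, at a limma adjusted p of 0.0247, against 61 of 609 (10%). It was in the test only through week 30 high fat, the group where it was highest, so that the call draws on the group that admitted it. It was at the floor on 10 of 20 arrays, 7 of them among the 8 of slide 1, so the spread of those groups was set largely by the floor. The call was lost without scaling, with either spike-in scale, with normexp background correction and when near-identical arrays were averaged. It was also lost on leaving out week 0 replicate 1, week 6 chow replicate 1 or 2, or any 1 of the week 30 high fat arrays.

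The members' part of the whole signal moved with them. Together the 7 entries made up 2.72% to 6.85% of the summed intensity of an array. Without miR-5100 the other 6 made up 3.26% to 4.90% on the week 30 high fat arrays and 1.89% to 2.25% on the week 30 chow arrays. MiR-5100 itself ranged from 0.202% (week 30 high fat replicate 1) to 3.92% (week 6 high fat replicate 3). The largest share of the other 6, 5.67%, was on week 18 high fat replicate 1.

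**Figure D3:**
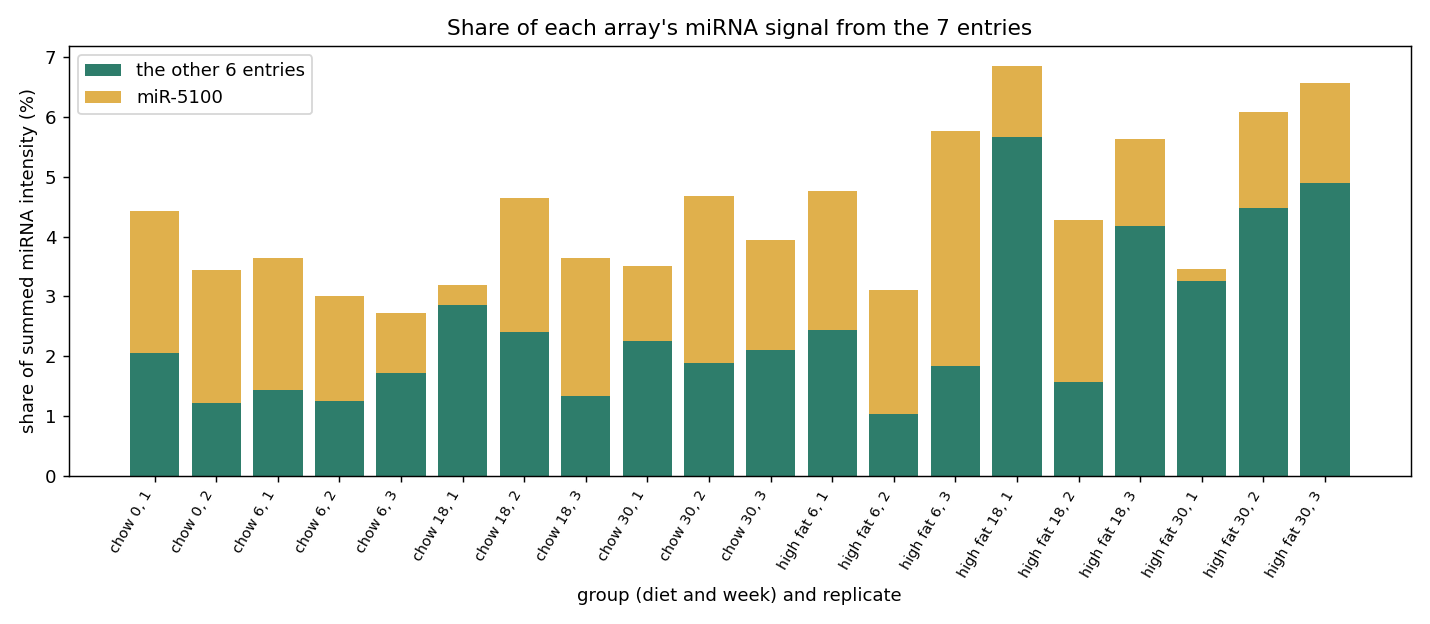
Share of each array's summed microRNA intensity (%, vertical axis from 0) from miR-5100 and from the other 6 entries, by diet, week and replicate. The 6 make up 3.26% to 4.90% on the week 30 high fat arrays, and miR-5100 is at its lowest share, 0.202%, on replicate 1 of that group.

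The members varied together apart from miR-5100. Among the other 6 the correlations over the 20 arrays ran from 0.60 (miR-5135 with miR-2137) to 0.97, while miR-5100 was negatively correlated with each, from -0.72 (miR-2137) to -0.40 (miR-5126). High correlations were common: between percentiles 5 and 95, the 18336 pairs of microRNAs detected on all arrays ran from -0.73 to 0.89, and these points share array, depth and scaling. The microRNAs most like miR-5126 were miR-3960, miR-8110 (0.96) and miR-211-3p (0.93), and for miR-3960 they were miR-5126, miR-8110 (0.96) and miR-680 (0.93). MiR-2861 was most like miR-3102-5p (0.94), miR-7018-5p (0.92) and miR-6538 (0.89), and miR-2137 most like miR-6965-5p (0.96), miR-6908-5p (0.96) and miR-3473g (0.95). MiR-5100 was most like miR-30b-5p (0.89), miR-199a-3p (0.88) and miR-21a-5p (0.87). Of these, miR-199a-3p and miR-21a-5p have 40.9% and 36.4% G+C. The non-members most like miR-5126, miR-3960 and miR-2861 have 66.7% to 94.7%, and those most like miR-2137 have 55.0% to 63.6%.

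The week 30 difference of miR-2861, miR-5126 and miR-2137 was also seen in other GC-rich microRNAs. MiR-5135 and miR-5100 have less than 70% G+C, and miR-3960 had no mature sequence to place it. Across the 496 tested microRNAs with a sequence, the difference and the G+C content correlated at a Pearson r of 0.52, and across the 159 detected on all arrays at 0.72; microRNAs are not independent replicates, and no test was made. Among the 159, the median difference was -1.15 under 40% G+C and 1.21 at 70% and over, where 22 lie. Of the 37 tested microRNAs at 70% or more that are no members, 36 were higher on the high fat diet, with a median of 1.18, beside differences of 1.47 for miR-2861, 1.03 for miR-5126 and 0.86 for miR-2137. Of all 609 tested, 282 were higher. At week 6 the correlation over the 496 was 0.14 and at week 18 it was 0.19. Between times on 1 diet it was 0.31 from week 6 to week 18 and -0.17 from week 18 to week 30 on chow, and 0.44 and 0.51 for the same steps on the high fat diet. With slide as a fixed block the week 30 value was 0.27.

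**Figure D4:**
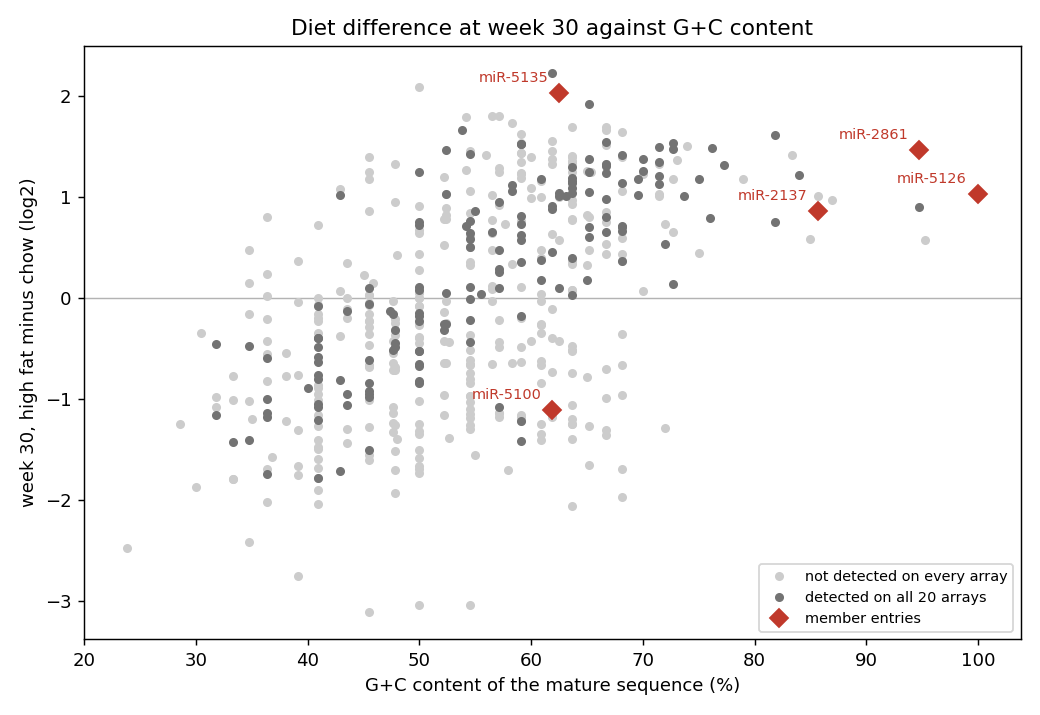
Week 30 difference, high fat minus chow (log2), against the G+C content of the mature sequence (%) for 496 tested microRNAs; dark points were detected on all 20 arrays and red diamonds are the members with a sequence. The difference is higher at higher G+C content, and miR-5100 at 61.9% lies at -1.11.

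Most entries of the other lists were also higher on the high fat diet at week 30. Of 19 tested entries often bright on such arrays, 16 were higher on the high fat diet at week 30, against 282 of all 609. The 19 ran from -0.47 to 1.62 with a median log2 difference of 1.02, and none was called. Not all of them are GC-rich: the lowest, miR-1187, has 34.8% G+C. The smallest p-values were those of miR-320-3p (1.51, SE 0.44), miR-1894-3p (1.14, SE 0.40), miR-149-3p (1.62, SE 0.57) and miR-705 (1.18, SE 0.45). Of 3 tested entries reported to match structural RNA, all 3 were higher: miR-6236 by 1.18 (SE 0.60), miR-6238 by 0.80 (SE 0.72) and miR-5112 by 0.75 (SE 0.69), with none called.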

How the data were processed

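Total RNA was labelled with Cy3 and hybridised to 1-colour Agilent mouse microRNA arrays, per the labels. The authors deposited the scanner output; its intensity values (gProcessedSignal) were made with the software named in the submitters' processing notes, Agilent Feature Extraction 11.5.1. The file headers name the build mm9. The deposited value table held the same values in all 20 columns. Control and outlier spots were left out, and spots were averaged to probes and probes to microRNAs. A microRNA counted as detected when a share of 0.5 or more of a probe's usable spots was well above background. Scaling was to the 75th percentile over 192 microRNAs detected on all arrays, with a floor at the lowest scaled signal well above background. The 609 microRNAs detected on every array of a group were tested with limma 3.58.1 (R 4.3.3) over 7 groups. The fit had 13 residual degrees of freedom, and the threshold was an adjusted p of 0.05. The procedure was tested on simulated data. Those values were independent between microRNAs and had no floor or slide effect, so that check does not cover these features of the arrays. The number of arrays limits the precision. All members were named in every comparison, with at most 4 entries per list by smallest p and the 3 most correlated microRNAs. Members and lists were chosen with earlier results of these data known.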

Additional observations from a re-analysis of the deposited data

How the results depend on the processing

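Under 43 settings no called value changed sign; 2514 values were uncalled under both settings, 193 of them with another sign. Members called at week 30 (0) became 1 with a floor higher by 1, 5 with only the groups compared, 5 with array weights, and 1 without replicate 1 of both week 18 groups (chosen after seeing the data, as were the spike-in scales and leaving out the 4 arrays with fewest detected microRNAs). For the mean diet difference (0) the count became 1 with the higher floor and 5 with array weights, and 0 to 1 leaving out each array in turn, the 1 without week 18 high fat replicate 2. With array weights 1 member was called between chow weeks 6 and 18 and 1 for the change of the diet difference with time. For any difference among the groups (1) the count became 0 with no scaling, normexp, either spike-in scale, near-identical arrays averaged, or only microRNAs detected on all 20 arrays, which leaves out miR-5135. It became 5 with array weights and 2 without both week 18 replicates 1. Leaving out each array it ran from 0 to 1, with 0 without week 0 replicate 1, week 6 chow replicates 1 or 2, or week 30 high fat replicates 1, 2 or 3. Causes were not tested. With the replicate block, 0 members were called at week 30 and miR-5135 had a limma adjusted p of 0.117. Deviations of same-numbered arrays had a median r of 0.06 over 57 pairs (-0.68 to 0.78), and those of other pairs -0.01 over 114. No pairing by number was seen, but these values cannot exclude one. Over the settings the limma adjusted p at week 30 ran from 8.94e-05 to 0.699 for miR-5135 and from 0.00255 to 0.694 for miR-2861. With the median over spots the week 30 difference of miR-5100 was -2.03. The deposited value table was not run as an alternative, since it equals the scanner values. Signal near background limits miR-5135 and miR-762.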
